A study of Rattus norvegicus with 11 samples.

Results

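The genes described are 10 chemokine and inflammatory cytokine genes, chosen by symbol: Cxcl1, Cxcl2, Cxcl3, Ccl2, Ccl3, Ccl20, Cx3cl1, Il1b, Il6 and Tnf. Of these 10, 9 had at least 1 probe set annotated to exactly 1 gene, with 15 probe sets in all, among 4736 genes and 8740 probe sets measured. Cxcl1 had none under this annotation and was not analysed here. The RNA came from alveolar epithelial cells of the rat and was hybridised to 11 Affymetrix arrays, 1 for each sample. They held 4 samples of freshly isolated type I (TI) cells at day 0, 3 of type II (TII) cells at day 7 of culture, and 4 of freshly isolated TII cells at day 0. No strain, age or treatment was given in the labels, and the labels do not say whether the samples of a group came from separate animals or isolations, so p-values measure only the spread between these arrays, which may be technical. The groups follow the sample descriptions and titles, because the source field names TI cells for every array.

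Chemokines are small secreted proteins that draw leukocytes along a gradient by way of G protein-coupled receptors. Cxcl1, Cxcl2 and Cxcl3 act mainly on neutrophils through Cxcr2, Ccl2 on monocytes through Ccr2, Ccl3 on monocytes and other leukocytes through receptors such as Ccr1, and Ccl20 on dendritic cells and lymphocytes through Ccr6, while Cx3cl1 is made as a membrane-bound protein that is shed and binds Cx3cr1. Il1b, Il6 and Tnf are cytokines that start and spread inflammation, and many of these genes are transcribed by NF-kB and have short-lived transcripts that Zfp36-type proteins help to degrade. In the lung they are made by alveolar macrophages and also by the epithelium.

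Promoter sequence is shown first, because NF-kB is the factor best known for these genes and several of them were lower together in cultured cells. RefSeq promoter sequence of the GRCr8 build was at hand for 6 of the 9 measured genes. In the 250 bases before the annotated start, both strands were searched for the NF-kB consensus, for the AP-1 motif TGANTCA and for the TATA box TATAAA. Cxcl2, Ccl20 and Il6 held an NF-kB match, 3 of 6, and 6.33% of all 33469 rat promoter windows of that length held one. Cx3cl1, Il1b and Tnf held none in this window and each held a TATA box, which 12.9% of all windows did. None of the 6 held AP-1, against 6.34% of all windows. All 6 genes, with or without a match, were called lower in cultured than in fresh TII cells, as were 14.0% of all genes. The matches describe letters, and no binding was measured. In the lines below, given 5′ to 3′ on the strand of the gene, capitals mark NF-kB matches in the first 3 and the TATA box in the last. The Cxcl2 capitals join overlapping matches, 74 to 64 bases before the start. The Ccl20 match, 89 to 80 bases before the start, lies on the opposite strand, and the Il6 match lies 68 to 59 bases before the start. Cxcl2, Ccl20 and Il6 are shown for the matches, and Il1b is shown because it alone of the 9 was called higher in fresh TI than in fresh TII cells.
Cxcl2 (chr14:17467256-17467505, minus strand): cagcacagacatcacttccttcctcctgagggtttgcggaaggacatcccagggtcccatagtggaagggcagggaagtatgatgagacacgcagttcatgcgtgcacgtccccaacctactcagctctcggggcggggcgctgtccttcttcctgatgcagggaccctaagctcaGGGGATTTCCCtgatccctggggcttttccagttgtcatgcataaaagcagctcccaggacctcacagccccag
Ccl20 (chr9:91836909-91837158, plus strand): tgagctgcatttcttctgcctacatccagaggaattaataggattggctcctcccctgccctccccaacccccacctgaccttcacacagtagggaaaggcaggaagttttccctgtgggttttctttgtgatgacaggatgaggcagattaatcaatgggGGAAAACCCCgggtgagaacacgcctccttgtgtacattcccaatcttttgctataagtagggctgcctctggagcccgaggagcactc
Il6 (chr4:5894576-5894825, minus strand): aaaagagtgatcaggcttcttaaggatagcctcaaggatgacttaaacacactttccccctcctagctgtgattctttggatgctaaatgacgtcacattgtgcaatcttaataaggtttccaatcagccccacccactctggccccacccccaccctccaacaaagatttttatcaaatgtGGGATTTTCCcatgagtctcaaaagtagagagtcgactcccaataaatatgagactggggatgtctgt
Il1b (chr3:137036582-137036831, minus strand): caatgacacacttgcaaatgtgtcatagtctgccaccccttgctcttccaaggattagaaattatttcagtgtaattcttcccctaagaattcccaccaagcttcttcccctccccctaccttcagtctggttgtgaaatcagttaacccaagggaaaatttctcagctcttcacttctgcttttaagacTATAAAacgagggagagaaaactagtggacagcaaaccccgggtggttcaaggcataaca

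All values below are deposited signals on a log2 scale. A gene is represented by its probe set with the highest mean over the 11 arrays, and the other probe sets are given beside it. The lower quartile of an array lay between 4.14 and 4.33, and its median between 5.43 and 5.51. No detection call was used here, so a value under the lower quartile was not read as absence. The cell labels matched their markers in the fresh cells: the 4 type I markers Pdpn, Aqp5, Cav1 and Ager were higher in fresh TI than in fresh TII cells, and the surfactant protein genes Sftpa1, Sftpb, Sftpc and Sftpd were lower. Cultured TII cells were lower in the same 4 surfactant genes, with Sftpb at 7.00 to 7.09, against 12.6 on each fresh TII array. They were higher in 3 of the 4 type I markers, Pdpn by 3.69 ± 0.08, Aqp5 by 1.03 ± 0.25 and Ager by 0.95 ± 0.13, and Cav1, at -0.06 ± 0.18, was not called (adjusted p = 0.86). Fresh TI arrays kept surfactant signal that differed between arrays, with Sftpb at 9.20, 10.04, 9.95 and 8.22 in replicates 1 to 4. In bulk RNA of this kind, fewer cells of a type and less RNA per cell cannot be told apart.

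Most of the 9 genes were lower in cultured than in fresh TII cells, and Ccl2 was the exception. Cultured TII cells were lower than fresh TII cells for 8 genes and higher for 1 (limma, adjusted p under 0.05), where 14.0% of all genes were called lower and 20.5% higher, 34.6% in all. The beta-actin control, as its 3′ signal less its 5′ signal, was -0.33 to -0.08 (log2) on cultured and 0.32 to 0.43 on fresh TII arrays, and the part of RNA quality in these differences was not tested. The median difference of the 9 genes was -1.27 (log2), and that of all genes -0.0052. The arrays of these groups did not overlap for any of the 9, while 44.5% of all genes had groups that did not overlap. Fresh TI cells were lower than fresh TII cells for 4 genes, Cxcl3, Ccl20, Cx3cl1 and Il6, and higher for Il1b, where 21.2% of all genes were called lower and 33.0% higher, 54.2% in all. The arrays of these groups did not overlap for those 5 genes, nor for 50.4% of all genes. The median difference was -0.51 for the 9 genes and 0.11 for all genes. Both comparisons use the same fresh TII arrays. Set against cultured TII cells, fresh TI cells were higher for 6 of the 9 and lower for 2, Ccl2 and Il6, where 34.2% of all genes were called higher and 25.8% lower, 60.0% in all. Those arrays did not overlap for 7 of the 9, nor for 57.7% of all genes. By mean level, fresh TII cells stood highest for 5 genes, fresh TI cells for 3 (Il1b, Tnf and Ccl3) and cultured TII cells for Ccl2 only, and cultured TII cells stood lowest for 6.

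**Figure D1:**
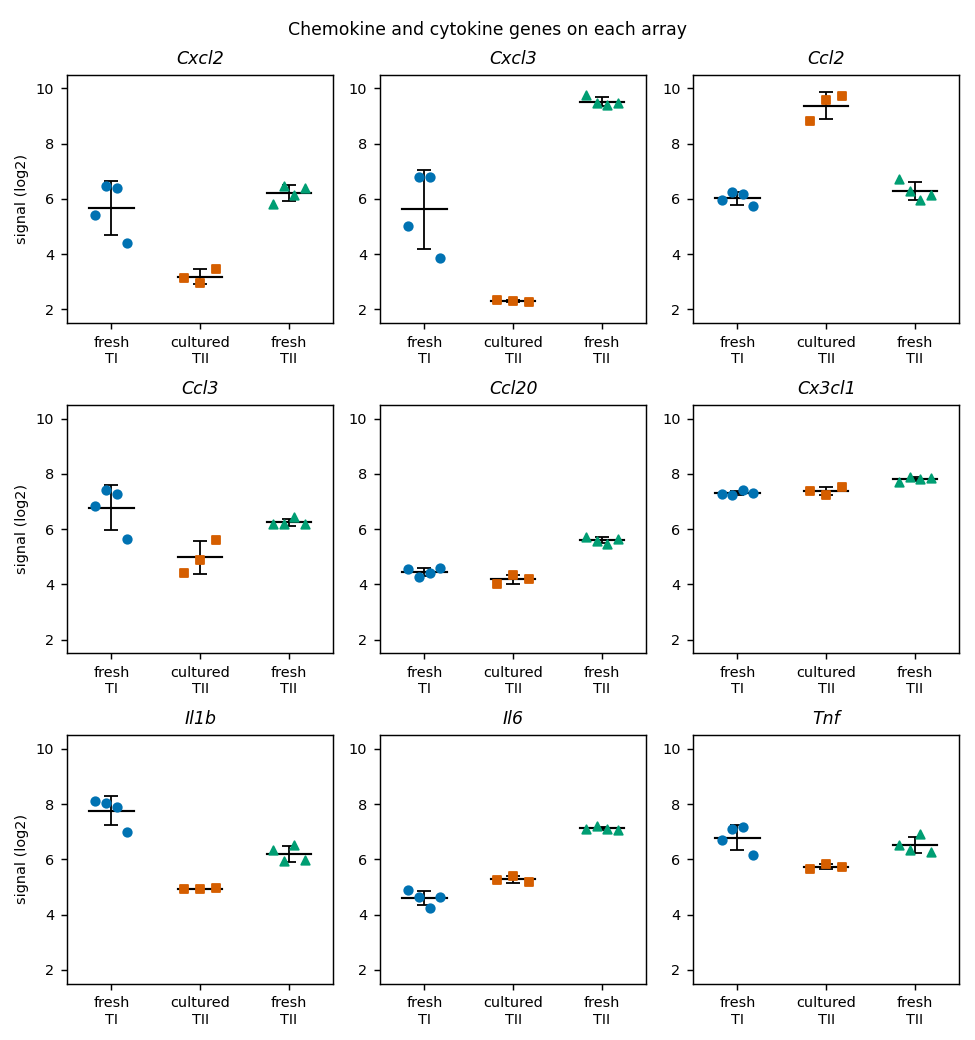
Signal (log2, vertical axis) of the 9 genes on each array of fresh TI, cultured TII and fresh TII cells; points are arrays, long bars are group means and whiskers are 1 SD. Cultured TII arrays sit lowest for Cxcl2 and Cxcl3, and highest for Ccl2, and fresh TI arrays are widely spread for Cxcl2, Cxcl3 and Ccl3.

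Cxcl3 (Entrez gene 171551), a chemokine of the neutrophil class, had the greatest difference of the 9 genes from fresh TII cells, in cultured and in fresh TI cells. It had signals of 5.02, 6.79, 6.79 and 3.88 in fresh TI cells, 2.35, 2.30 and 2.26 in cultured TII cells, and 9.76, 9.49, 9.39 and 9.46 in fresh TII cells. The 3 groups did not overlap, and the cultured arrays lay within 0.1 of each other and under the lower quartile of the array. Cultured minus fresh TII cells gave -7.22 ± 0.54 (log2, SE; 149-fold lower in culture; adjusted p = 2.7e-07). Fresh TI minus fresh TII cells gave -3.91 ± 0.50 (15.0-fold lower; adjusted p = 4.08e-05). Its spread between fresh TI arrays was the widest of the 9 genes, at an SD of 1.43, against 0.16 between fresh TII arrays.

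Cxcl2 (114105), the gene for macrophage inflammatory protein 2, had signals of 5.43, 6.47, 6.38 and 4.39 in fresh TI cells, 3.13, 2.95 and 3.48 in cultured TII cells, and 5.82, 6.48, 6.15 and 6.40 in fresh TII cells. Cultured arrays lay below every fresh array, whereas fresh TI and fresh TII arrays overlapped. Cultured minus fresh TII cells gave -3.03 ± 0.39 (8.16-fold lower; adjusted p = 4.49e-05). The difference of fresh TI from fresh TII cells, -0.55 ± 0.36, did not pass the test (adjusted p = 0.213), and it was -0.12 without fresh TI replicate 4. Set against cultured cells, fresh TI cells were higher in Cxcl2 by 2.48 ± 0.39 (adjusted p = 0.000194) and in Cxcl3 by 3.31 ± 0.54 (adjusted p = 0.000246).

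The fresh TI arrays fell alike for Cxcl3 and for the surfactant genes named here: replicates 2 and 3 were high, replicate 1 lower and replicate 4 lowest. Which of replicates 2 and 3 was higher differed between genes. Sftpc had 11.9, 12.4, 12.5 and 10.7 on these arrays, and Sftpa1 8.61, 9.80, 10.02 and 7.41. By their brightest probe sets, Cxcl2, Ccl2, Ccl3 and Tnf fell that way too, while Ccl20, Cx3cl1, Il1b and Il6 did not. The other Ccl2 probe set did not either, with 5.769, 5.76, 5.665 and 5.862 in replicates 1 to 4. The order was not particular to TII genes. Outside the set, Il18, Ccr1, Casp1, Adam17 and Furin also took the order of Cxcl3. The neutrophil marker S100a9 and the macrophage marker Fcgr2b did so too, while the leukocyte and macrophage markers Ptprc, Aif1 and C1qb did not. The share of all genes with that order was not counted. Over all 11 arrays the genes with patterns most like that of Cxcl3 were Sftpb (Pearson r = 0.996), Sftpa1 (r = 0.992) and Cadps2 (r = 0.988). These are descriptions over arrays that fall into 3 groups and share a scale. The part of residual TII transcripts in the fresh TI signal of Cxcl2, Cxcl3, Ccl2, Ccl3 and Tnf was not tested.

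**Figure D2:**
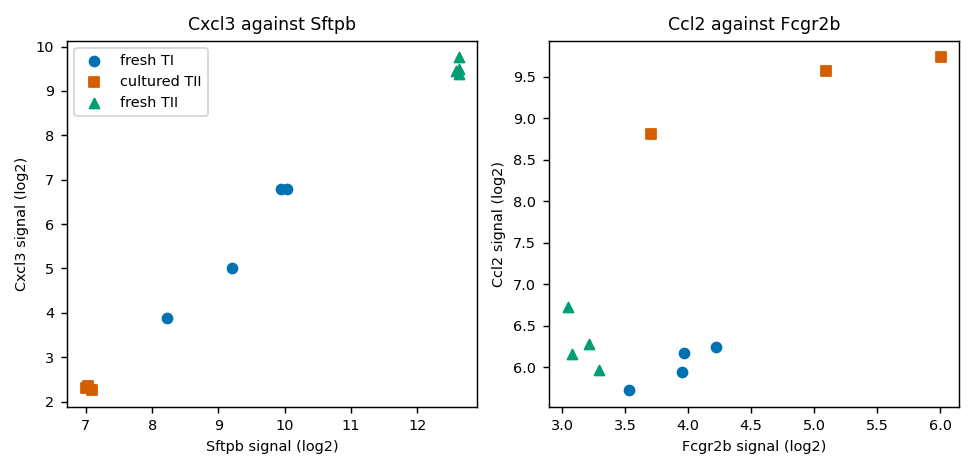
Left, Cxcl3 signal against Sftpb signal, and right, Ccl2 signal against that of the Fc receptor gene Fcgr2b (all log2), with 1 point for each array of fresh TI, cultured TII and fresh TII cells. The fresh TI points at Sftpb 8.22 to 10.04 lie between the cultured and the fresh TII points. The cultured points with more Fcgr2b signal also have more Ccl2 signal, an order that genes of other lists took too.

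Ccl2 (24770), the monocyte attractant, was the single gene of the set that rose in culture. It had signals of 5.94, 6.25, 6.18 and 5.73 in fresh TI cells, 8.81, 9.57 and 9.74 in cultured TII cells, and 6.73, 6.28, 5.96 and 6.16 in fresh TII cells. Every cultured array lay above every fresh array, and the fresh groups overlapped. Cultured cells were higher than fresh TII cells by 3.09 ± 0.22 (8.52-fold; adjusted p = 1.69e-07), and fresh TI minus cultured cells gave -3.35 ± 0.22 (adjusted p = 1.07e-07). The other Ccl2 probe set gave 2.96 ± 0.20 for cultured minus fresh TII cells. Fresh TI and fresh TII cells differed by -0.26 ± 0.20 on the first probe set (adjusted p = 0.293) and by 0.40 ± 0.19 on the other (adjusted p = 0.0844), so no direction was called and the probe sets pointed opposite ways.

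Between the cultured arrays, 5 of 7 macrophage markers (Fcgr2b, Itgam, Cd14, Ptprc and Aif1) took the same order as Ccl2. C1qb and Csf1r did not, each lowest on replicate 3 at 5.78 and 4.62. The order was not particular to macrophage markers. The lymphocyte markers Cd2, Cd3d, Cd3g, Cd8a, Cd8b and Prf1 took it too, while Cd4, Cd5, Cd79b and Gzmb did not. Ccl3, Nfkbia, Casp1 and Furin also took it, and the share of all genes with that order was not counted. Of the 7 measured macrophage markers, 2 were higher in cultured than in fresh TII cells (Fcgr2b and Itgam), 1 was lower (Aif1) and 4 were not called. Of all genes, 20.5% were called higher and 14.0% lower in that comparison. Fcgr2b had 3.71, 5.09 and 6.004 on the cultured arrays and 3.04 to 3.29 on the fresh TII arrays. Itgam had 3.50, 3.77 and 4.16 on the cultured arrays and 3.15 to 3.34 on the fresh TII arrays. The summed level of the 7 markers was 8.60, 8.71 and 9.07 (log2) in culture and 8.63 to 8.79 in fresh TII cells. Ptprc, the CD45 gene of leukocytes, had 5.33 to 5.402 in culture and 5.496 to 5.595 in fresh TII cells. The part of macrophages in the Ccl2 signal was not tested.

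Ccl3 (25542) followed another order. It had signals of 6.82, 7.397, 7.27 and 5.63 in fresh TI cells, 4.43, 4.89 and 5.61 in cultured TII cells, and 6.19, 6.20, 6.43 and 6.18 in fresh TII cells. Cultured arrays lay below all fresh arrays, by a small margin against replicate 4 of the fresh TI cells. Cultured cells were lower than fresh TII cells, with a difference of -1.27 ± 0.36 (2.41-fold; adjusted p = 0.0146). This call ended without cultured replicate 1 (-0.996, adjusted p = 0.072) and without cultured replicate 2 (-1.23, adjusted p = 0.0515). Fresh TI cells differed from fresh TII cells by 0.53 ± 0.33 (adjusted p = 0.188), and by 0.92 without fresh TI replicate 4, where the difference was called (adjusted p = 0.00528). Set against cultured cells, fresh TI cells were higher by 1.80 ± 0.36 (adjusted p = 0.00107).

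Ccl20 (29538), which acts on dendritic cells and lymphocytes, was higher in fresh TII cells than in both other groups. It had signals of 4.54, 4.28, 4.397 and 4.61 in fresh TI cells, 4.02, 4.34 and 4.21 in cultured TII cells, and 5.72, 5.56, 5.48 and 5.64 in fresh TII cells. Arrays within a group lay close together, with SDs of 0.11 to 0.16. The difference from fresh TII cells was -1.14 ± 0.09 in fresh TI cells (2.21-fold; adjusted p = 6.86e-07) and -1.41 ± 0.10 in cultured cells (2.66-fold; adjusted p = 1.81e-07). The difference of 0.27 ± 0.10 between fresh TI and cultured cells was called (adjusted p = 0.0371), but its arrays overlapped and the call ended under each of the 3 other scalings, at 0.13 to 0.22. It also ended with the replicate number as a block (0.24, adjusted p = 0.0943) and without fresh TI replicate 1 or 4 or cultured replicate 1 or 3.

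Cx3cl1 (89808) encodes the membrane-bound chemokine. Its brightest probe set had 7.28, 7.25, 7.41 and 7.29 in fresh TI cells, 7.36, 7.23 and 7.51 in cultured TII cells, and 7.71, 7.89, 7.82 and 7.83 in fresh TII cells. Both other groups lay below all fresh TII arrays, with differences of -0.51 ± 0.08 in fresh TI cells (adjusted p = 0.000157) and -0.45 ± 0.08 in cultured cells (adjusted p = 0.000817). The probe sets did not give the same size. A second one differed by -0.53 in fresh TI and -0.40 in cultured cells, both called. The third, with 5.42, 5.62, 5.48 and 4.99 in fresh TI cells and 7.54 to 8.004 in fresh TII cells, differed by -2.41 ± 0.15 (adjusted p = 5.25e-08), while its difference in culture, -0.34 ± 0.16, was not called (adjusted p = 0.139). Which probe set follows the transcript best was not tested.

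Among the cytokines, Il1b (24494), which encodes the interleukin 1 beta precursor, rose in fresh TI cells and fell in culture. It had signals of 8.12, 8.05, 7.90 and 6.98 in fresh TI cells, 4.92, 4.92 and 4.94 in cultured TII cells, and 6.34, 5.94, 6.502 and 5.97 in fresh TII cells. The 3 groups did not overlap, and replicate 4 was the lowest of the fresh TI arrays. Fresh TI cells were higher than fresh TII cells by 1.58 ± 0.21 (2.98-fold; adjusted p = 6.56e-05), and the other probe sets gave 1.37 and 1.53. Cultured minus fresh TII cells gave -1.26 ± 0.23 (2.40-fold lower; adjusted p = 0.000766). The other probe sets gave -2.12 (adjusted p = 1.58e-05) and -0.58, of which the second was not called (adjusted p = 0.111).

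Tnf (24835) had signals of 6.70, 7.10, 7.17 and 6.16 in fresh TI cells, 5.67, 5.82 and 5.73 in cultured TII cells, and 6.52, 6.34, 6.90 and 6.27 in fresh TII cells. The fresh groups overlapped and the cultured arrays lay below them. Cultured minus fresh TII cells gave -0.77 ± 0.21 (1.71-fold lower; adjusted p = 0.0122). The difference of fresh TI from fresh TII cells, 0.27 ± 0.20, was not called (adjusted p = 0.248). Without fresh TI replicate 4 it was 0.48 and was called (adjusted p = 0.0188).

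Fresh TI replicate 4 was the lowest of its group for 6 of the 9 genes. Leaving it out raised the number of the 9 called between fresh TI and fresh TII cells to 7, with 3 higher and 4 lower. With all arrays 54.2% of all genes were called, and the share called without replicate 4 is not given here. On that array the surfactant genes above were also lowest, and so were the neutrophil genes S100a8 and S100a9, while the other neutrophil markers were lowest on replicate 3 (Cxcr2) and replicate 2 (Mmp8). S100a9 had 4.41, 4.86, 5.41 and 3.41 on the fresh TI arrays and 2.55 to 2.93 on the fresh TII arrays. The summed level of the 4 measured neutrophil markers was 5.30 to 6.20 (log2) in fresh TI and 4.82 to 4.95 in fresh TII cells. All 4 were called higher in fresh TI than in fresh TII cells. Cxcr2, at 0.19, lost the call under each other scaling, and Mmp8, at 0.36, after matching the median and SD of the arrays. Cxcr2, Mmp8 and S100a8 lay under the lower quartile on every array. Of the 7 macrophage markers, 3 were higher in fresh TI cells (C1qb, Ptprc and Aif1, at 0.47, 0.43 and 0.31), 1 was lower (Cd14, at -0.46) and 3 were not called. Their summed level was 8.83 to 8.94 in fresh TI and 8.63 to 8.79 in fresh TII cells. Ptprc had 6.19, 5.79, 5.93 and 6.05 on the fresh TI arrays, so it was not lowest on replicate 4. Other cell types had markers called higher in fresh TI than in fresh TII cells too: 4 of 10 for lymphocytes, 2 of 4 for mast cells, 3 of 6 for endothelium and 5 of 8 for fibroblasts and smooth muscle, with none called lower, where 33.0% of all genes were called higher. Under the other scalings these counts were 3 to 4, 0 to 1, 2 to 3 and 5, against 26.0% to 28.1% of all genes. The part of leukocytes in the Il1b, Tnf and Ccl3 signal of the TI isolates was not tested.

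Il6 (24498) had the pattern opposite to Il1b in the fresh cells. It had signals of 4.88, 4.64, 4.26 and 4.62 in fresh TI cells, 5.25, 5.400 and 5.17 in cultured TII cells, and 7.11, 7.21, 7.10 and 7.05 in fresh TII cells. The 3 groups did not overlap, and the fresh TII arrays had an SD of 0.07. The difference from fresh TII cells was -2.52 ± 0.11 in fresh TI cells (5.72-fold lower; adjusted p = 2.31e-09) and -1.84 ± 0.12 in cultured cells (3.59-fold lower; adjusted p = 7.36e-08). The other Il6 probe set, at 3.51 to 4.33 over all arrays, was also called lower, at -0.41 in fresh TI and -0.54 in cultured cells. The order of fresh TI and cultured cells differed between the probe sets, at -0.67 ± 0.12 on the first (adjusted p = 0.000482) and 0.12 ± 0.10 on the other (adjusted p = 0.308).

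**Figure D3:**
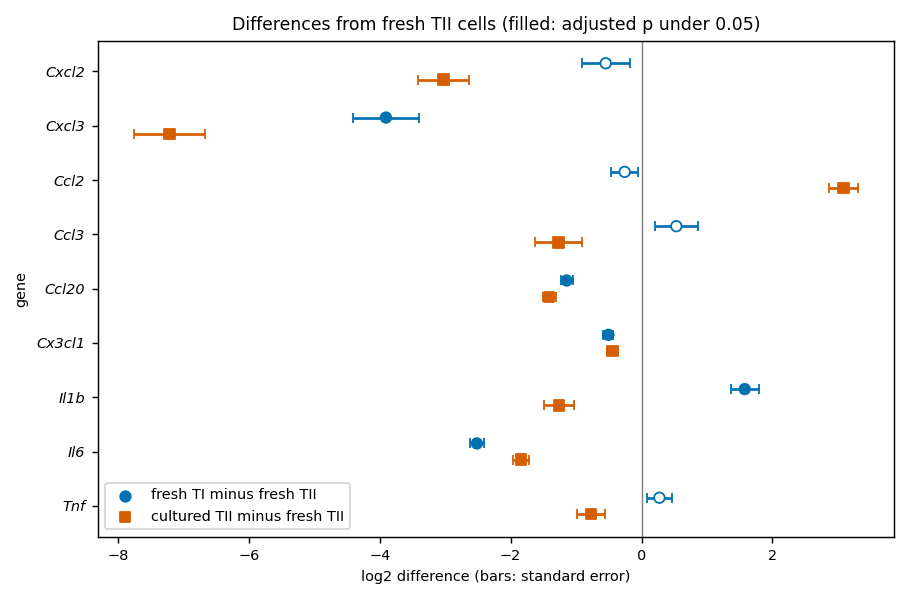
Log2 difference from fresh TII cells (horizontal axis) for the 9 genes, in fresh TI cells (circles) and in cultured TII cells (squares), with standard errors from the model; filled symbols passed an adjusted p of 0.05. Cultured cells fall left of 0 for each gene except Ccl2, and fresh TI cells are at 1.58 for Il1b and -3.91 for Cxcl3.

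The genes whose arrays most resembled each member were found by Pearson r over the 11 arrays, as a description that mainly follows the group means. For Il6 they were Ephx1 (r = 0.986), Acsl4 (0.982) and the airway secretory gene Scgb1a1 (0.982). For Ccl20 they were Gp2 (0.986), Bmp3 (0.984) and Cyp2f4 (0.982), and for Cxcl2 Lyz2 (0.966), Hist4h4 (0.962) and Sftpc (0.954). Ccl2 was most like Mydgf (0.994), Ykt6 (0.988) and Nup210 (0.987), and Il1b was most like Pabpc4 (0.982), Zfp580 (0.976) and Gpc3 (0.962). Ccl3 and Tnf shared Irf7 among their nearest genes, at 0.935 and 0.943. The other nearest genes were Slfn5 (0.962) and Gtf3c1 (0.928) for Ccl3, Alox5ap (0.926) and Alox15 (0.926) for Tnf, and Pex11a (0.960), Mllt10 (0.957) and Ggh (0.957) for Cx3cl1.

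The list of NF-kB signalling and of feedback on inflammatory transcripts had 12 measured genes. Relative to fresh TII cells, fresh TI cells had 6 of them lower and 1 higher (median -0.69), and cultured cells likewise had 6 lower and 1 higher (median -0.55), where 21.2% and 14.0% of all genes were called lower. The other 5 genes of the list were not called in each comparison, and Cebpb, Hnrnpd and Stat3 were called in neither. Nfkbia, the inhibitor that NF-kB itself induces, had 8.70, 8.81, 8.63 and 8.37 in fresh TI cells, 6.56, 6.81 and 7.11 in cultured TII cells, and 9.48, 9.71, 9.63 and 9.93 in fresh TII cells. Its 3 groups did not overlap. The difference from fresh TII cells was -1.06 ± 0.13 in fresh TI cells (adjusted p = 2.83e-05) and -2.86 ± 0.14 in cultured cells (adjusted p = 5.25e-09).

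Zfp36, which binds AU-rich elements and promotes decay of cytokine transcripts, differed from fresh TII cells by -1.76 ± 0.08 in fresh TI cells (adjusted p = 2.34e-09) and by -2.57 ± 0.08 in cultured cells (adjusted p = 1.5e-10). Its relative Zfp36l1 differed by -2.41 ± 0.12 in fresh TI cells (adjusted p = 8.41e-09) and by -2.30 ± 0.13 in cultured cells (adjusted p = 2.53e-08). The phosphatase gene Dusp1, which ends MAP kinase signalling, differed by -0.92 ± 0.11 in fresh TI cells and by -2.10 ± 0.12 in cultured cells, both called. Socs3, a feedback inhibitor of Il6 receptor signalling, differed by -0.85 ± 0.11 in fresh TI cells and by -0.96 ± 0.12 in cultured cells, both called. Cebpd, a transcription factor gene of the acute phase response, was lower in fresh TI cells, at -1.36 ± 0.19, and its difference of -0.55 ± 0.20 in culture was not called (adjusted p = 0.0521). Nfkb1, a subunit of NF-kB, was higher in cultured cells by 0.35, a call that ended after quantile scaling, and differed by -0.22 in fresh TI cells, which was not called. Traf2, an adaptor of Tnf receptor signalling, was the gene called higher in fresh TI cells, by 0.35 ± 0.11 (adjusted p = 0.0157). Map3k8, a kinase gene of the same pathway, was lower in culture, at -0.56 ± 0.10 (adjusted p = 0.000901). Its signal was 2.15 to 2.92 over all arrays, under the lower quartile.

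**Figure D4:**
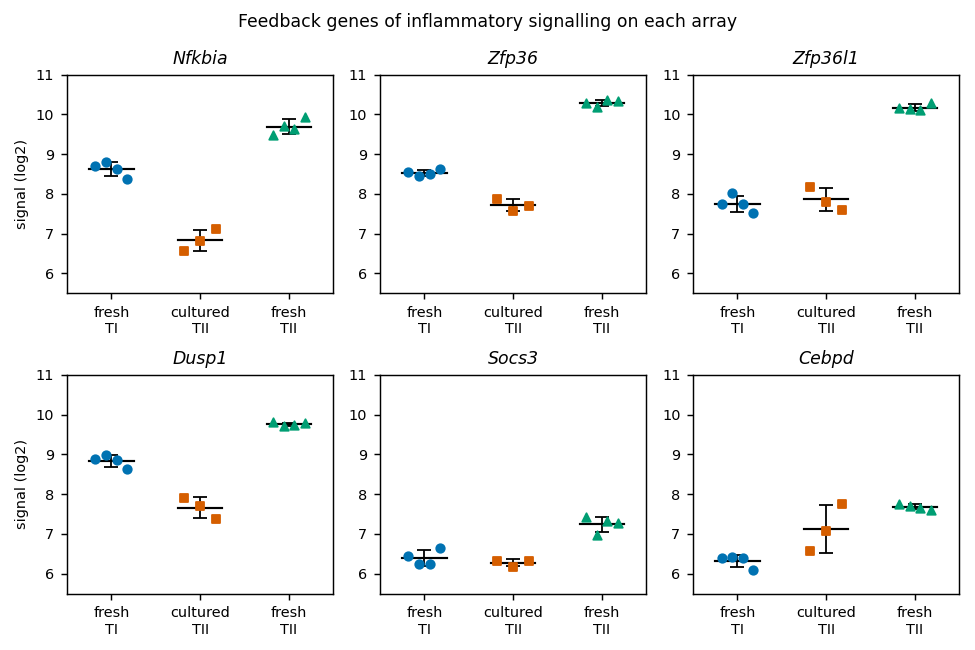
Signal (log2, vertical axis) of 6 feedback genes on each array of fresh TI, cultured TII and fresh TII cells; points are arrays, long bars are group means and whiskers are 1 SD. Fresh TII arrays sit above both other groups for Nfkbia, Zfp36, Zfp36l1, Dusp1 and Socs3, while for Cebpd only cultured replicate 3, at 7.76, reaches the fresh TII level and the others lie below it, at 6.57 and 7.07.

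The receptors through which these ligands act gave differences of at most 0.81 in size from fresh TII cells. Of 13 measured genes, among them Il1rn, which encodes the secreted interleukin 1 receptor antagonist and no receptor, 9 were higher and 1 lower in fresh TI than in fresh TII cells, and 1 was higher in cultured than in fresh TII cells, the interleukin 8 type receptor Cxcr1. The medians were 0.28 and -0.052, against 0.11 and -0.0052 for all genes. Under the other scalings the fresh TI count was 7 higher with 0 or 1 lower, against 26.0% to 28.1% and 20.7% to 23.5% of all genes. Il1rn (0.28, adjusted p = 0.0261) and Cxcr2 were the higher calls lost. The highest was the Il6 receptor Il6r, at 0.81 ± 0.16 in fresh TI cells (adjusted p = 0.00115) and -0.08 ± 0.17 in cultured cells (adjusted p = 0.793). The Tnf receptor Tnfrsf1a was lower in fresh TI cells, at -0.37 ± 0.07 (adjusted p = 0.000653), a call that ended after quantile scaling, and did not pass in culture. Ccr1, a receptor of Ccl3, was higher in fresh TI cells by 0.61 ± 0.17 (adjusted p = 0.0093), Ccr2, the receptor of Ccl2, by 0.36 ± 0.11 (adjusted p = 0.0151) and Cx3cr1, the receptor of Cx3cl1, by 0.36 ± 0.11 (adjusted p = 0.0165), and none of these passed in culture. Cxcr2, the receptor of Cxcl2 and Cxcl3 on neutrophils, stayed between 2.72 and 3.33 on all arrays, under the lower quartile.

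Other chemokines gave no single direction. Of 9 measured, 3 were higher and 1 lower in fresh TI than in fresh TII cells, against 33.0% and 21.2% of all genes. The counts were 1 higher and 1 lower after quantile scaling and after matching the median and SD of the arrays, without Ccl11 and Cxcl13. Of all genes, 28.1% and 26.2% were called higher under these scalings, and 20.7% and 22.7% lower. In cultured cells 2 were higher and 4 lower than in fresh TII cells, against 20.5% and 14.0% of all genes. Platelet factor Pf4 had 5.92, 5.76, 5.86 and 6.02 in fresh TI cells, 6.97, 8 and 9.18 in cultured TII cells, and 5.56, 5.41, 5.39 and 5.502 in fresh TII cells. It was higher in culture by 2.58 ± 0.35 (adjusted p = 5.94e-05), and its cultured arrays took the same order as Ccl2, Fcgr2b and genes of other lists. Ccl5, which attracts T cells and monocytes, differed by -0.74 ± 0.13 in fresh TI cells (adjusted p = 0.000414) and by -1.52 ± 0.14 in cultured cells (adjusted p = 1.5e-06). Cxcl10, an interferon-induced chemokine, was lower in culture, at -0.70 (adjusted p = 0.00122). Cxcl13, which attracts B cells, was called higher by 0.55 in fresh TI cells (adjusted p = 0.0288; not called after quantile scaling or after matching the median and SD of the arrays) and by 0.60 in cultured cells (adjusted p = 0.042).

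Of 22 other cytokine genes, 13 were higher and 2 lower in fresh TI than in fresh TII cells (median 0.24). Of all genes, 33.0% were called higher and 21.2% lower there. Under the other scalings the cytokine count was 10 to 11 higher and 2 lower, against 26.0% to 28.1% and 20.7% to 23.5% of all genes. In cultured cells 3 were higher and 2 lower than in fresh TII cells (median -0.014), against 20.5% and 14.0% of all genes. Il33, an alarmin of the Il1 family, had 4.13, 4.22, 4.05 and 3.66 in fresh TI cells, 4.82, 5.02 and 4.57 in cultured TII cells, and 6.45, 6.24, 6.56 and 6.14 in fresh TII cells. Both other groups lay below all fresh TII arrays, with differences of -2.33 ± 0.14 in fresh TI cells (adjusted p = 2.86e-08) and -1.54 ± 0.15 in cultured cells (adjusted p = 2.8e-06). Il18, another Il1 family member, was higher in fresh TI cells by 1.27 ± 0.46 (adjusted p = 0.0334) and in cultured cells by 1.67 ± 0.50 (adjusted p = 0.0193). It had 6.04, 7.13, 6.95 and 5.01 on the fresh TI arrays, where replicate 4 lay within the fresh TII range of 4.74 to 5.24. Mif was lower in fresh TI cells, at -0.59 ± 0.07, and higher in cultured cells by 0.83 ± 0.08, and Il15 was higher in fresh TI cells by 0.85.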

How the data were processed

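Total RNA was measured on 11 Affymetrix rat arrays (4 fresh TI, 3 cultured TII, 4 fresh TII; groups from the sample descriptions). The values deposited by the authors are on a log2 scale, with 1 value for each probe set and array; the sources used here do not give how the signals were summarised or normalized. The base was read from the values. Their medians were nearly equal, so no rescaling was applied. The SD of an array was 1.77 to 1.85 in fresh TI and 1.92 to 1.95 in fresh TII cells. The shares of all genes called between these groups, 33.0% higher and 21.2% lower, depend on the scaling. Under the 3 other scalings they were 26.0% to 28.1% higher and 20.7% to 23.5% lower. The table holds 8799 probe sets. Without the 59 controls, 8740 entered the tests, dim ones included: 7006 with exactly 1 annotated gene, 308 with several and 1426 with none. Symbols follow the Entrez gene in RefSeq where it was listed. The number of arrays limits the precision.

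The model had a mean for each of the 3 groups over the 11 arrays (limma 3.58.1 in R 4.3.3, lmFit and eBayes, two-sided), with Benjamini-Hochberg adjustment within a comparison across all 8740, and a call at an adjusted p under 0.05. The fit was tested on simulated data. Named genes were all members, any gene of the receptor and feedback lists, up to 4 called genes with the greatest difference in each other list, and the 3 genes nearest each member by Pearson r. Members and lists were chosen with earlier results of these data known. Alternatives were 3 scalings, a filter on dim probe sets, an intensity trend, a robust fit, fits on the 2 groups compared, a replicate block, the mean of a gene's probe sets, a call at 0.01 and leaving out each array. Deviations from group means correlated at -0.20 to 0.28 for the 10 pairs of the same replicate number. For the 30 pairs of different numbers they correlated at -0.27 to 0.23. These ranges overlap and cannot decide whether replicate numbers pair the arrays, and the main fit used no pairing.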

Additional observations from a re-analysis of the deposited data

Results flagged for a closer look

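Each of the 15 probe sets was checked for an array apart from the others in both groups of 4, and 2 of 30 checks found one; chance gives about 1 in 20. On 1 Il1b probe set, fresh TI replicate 4 had 5.49, below the other fresh TI arrays at 6.71 to 6.80. It stayed above the fresh TII arrays of that probe set, which reached 5.16. For Ccl3, fresh TII replicate 3 had 6.43, above the other fresh TII arrays at 6.18 to 6.20.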

How the results depend on the processing

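The number of the 9 genes called was 5 for fresh TI minus fresh TII, 9 for cultured minus fresh TII and 8 for fresh TI minus cultured TII cells. Over the 10 alternatives the counts were 4 to 5, 7 to 9 and 6 to 9, and with 1 array left out they were 5 to 7, 8 to 9 and 7 to 8. Under the 3 other scalings, 19.4% to 20.8% of all genes were higher and 13.6% to 14.0% lower in cultured than in fresh TII cells. Between fresh TI and cultured TII cells, 26.7% to 28.9% were higher and 24.5% to 28.1% lower. The shares of all genes under the other alternatives, or with 1 array left out, are not given here. Leaving out the dimmer probe sets, where 7 genes remained to be tested, gave 4, 7 and 6. With the replicate block the counts were 5, 9 and 7. The Cx3cl1 difference between fresh TI and cultured cells, -0.06 and not called, changed sign after quantile scaling (0.10), after matching the median and SD of the arrays (0.0338), and with 1 array left out it ran between -0.1302 (without cultured replicate 2) and 0.0128 (without cultured replicate 3). The Ccl2 difference between fresh TI and fresh TII cells, -0.26 and not called, was 0.0717 with the mean of both probe sets. With the mean of its probe sets, the Cx3cl1 difference between fresh TI and cultured cells was called, at -0.75. At an adjusted p under 0.01 the Ccl3 and Tnf calls in culture ended. The replicate block ended 1 call among the 9 genes, that of Ccl20 between fresh TI and cultured cells.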

Other observations

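Other known NF-kB target genes gave both directions. Of 16 measured, 7 were lower and 4 higher in fresh TI than in fresh TII cells, and 4 were lower and 4 higher in cultured than in fresh TII cells. Of all genes, 21.2% were called lower and 33.0% higher in the first comparison, and 14.0% and 20.5% in the second. Lcn2, a siderophore-binding defence protein, had 5.53, 5.81, 6.36 and 5.15 in fresh TI cells, 5.83, 7.40 and 8.91 in cultured TII cells, and 10.4, 9.91, 9.68 and 9.94 in fresh TII cells. The cultured arrays were spread widely and lay below all fresh TII arrays, with a difference of -2.60 ± 0.52 (adjusted p = 0.00157). Complement C3 was lower in both, at -2.61 ± 0.13 in fresh TI and -2.91 ± 0.14 in cultured cells. Tissue factor F3, which starts coagulation, was lower in fresh TI cells, at -3.87 ± 0.11, and higher in cultured cells by 1.46 ± 0.12. Gch1, the first enzyme of tetrahydrobiopterin synthesis, was lower in both, at -2.11 ± 0.24 in fresh TI and -1.09 ± 0.26 in cultured cells.

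The measured enzymes that process or shed the members were all called higher in cultured than in fresh TII cells, 4 of 4, against 20.5% of all genes. Adam17, the protease that releases Tnf and Cx3cl1 from the membrane, had 6.16, 6.35, 6.43 and 5.92 in fresh TI cells, 8.05, 7.94 and 8.004 in cultured TII cells, and 5.997, 6.27, 6.06 and 6.23 in fresh TII cells. Every cultured array lay above every fresh array, with a difference from fresh TII cells of 1.86 ± 0.11 (adjusted p = 4.41e-08), while fresh TI cells differed by 0.08 ± 0.11 (adjusted p = 0.554). In culture Adam10 was higher by 0.92 ± 0.12, Furin by 1.19 ± 0.17 and Casp1, which cleaves the Il1b precursor, by 0.48 ± 0.15. Another Furin probe set, at 0.18, was not called. For Casp1 the cultured and fresh TII arrays overlapped. Casp1 was also called higher in fresh TI than in fresh TII cells, by 0.80 ± 0.14 (adjusted p = 0.000521).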
